A study of Mus musculus with 18 samples.

Results

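The 9 genes described here, Mog, Mag, Mbp, Cnp, Opalin, Mobp, Cldn11, Ugt8a and Gjb1, encode proteins of central nervous system myelin or an enzyme that makes one of its lipids. They were chosen by gene symbol, and all 9 were found among the 55385 genes of the count tables. The samples are hippocampi of C57BL/6 mice, either with a conditional knockout of Arid1a (cKO), a DNA-binding subunit of the BAF chromatin remodelling complex, or wild type (WT). RNA was sequenced from 2 cKO and 2 WT samples at 3 weeks of age (P21) and from 3 cKO and 3 WT samples at embryonic day 16.5 (E16.5). Chromatin immunoprecipitation sequencing (ChIP-seq) for H3K4me3, H3K27ac and H3K27me3, with input, was done at 3 weeks in 1 library per mark and genotype. The sources used here name neither the Cre driver nor the cells it acts in, and do not say which Arid1a alleles the WT mice carried. The RNA replicates are called biological in the series design, and nothing says whether tissue was pooled.

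Myelin is the membrane that oligodendrocytes wrap around axons in many layers, and its compaction depends on a small set of abundant proteins. Oligodendrocytes arise from progenitors, and the transcription factors SOX10 and MYRF are known to switch on the myelin genes as the cells mature. In the mouse forebrain this takes place mostly after birth, so that a 3-week-old hippocampus is in active myelination while an embryonic one holds few or no myelinating cells.

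All 9 myelin genes were lower in the cKO hippocampus at P21, and the sizes of the differences covered a wide range. The gap junction gene Gjb1 was at 17.9% of its WT level, the glycolipid enzyme gene Ugt8a at 24.8%, Mog at 28.0% and Opalin at 31.1%. Cnp, Mag and Cldn11 were at 45.3%, 46.2% and 46.3%. Mobp stood at 54.8% of WT, and Mbp, the gene with the most reads of the 9, at 67.7%. All 9 passed edgeR's quasi-likelihood test (Benjamini-Hochberg adjusted p between 0.00049 and 0.0228), against a background of 3.91% of the 17407 genes tested that were called lower in cKO and 2.81% called higher. With upper-quartile scaling the calls over all genes were 519 lower and 570 higher, in place of 680 lower and 489 higher, and all 9 myelin genes were still called lower. The median log2 change of the 9 was -1.14, against 0.01 over all genes tested. At E16.5 none of the 9 was called in either direction.

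Arid1a itself, which checks the labels, was read at 110 and 89.2 CPM in P21 cKO hippocampi, against 215 and 205 CPM in WT. CPM are counts scaled to 1000000 after TMM adjustment of the library size. At E16.5 it stood at 180, 175 and 176 CPM in cKO and at 262, 282 and 285 CPM in WT. The cKO libraries were below every WT library at both ages. Estimated counts per library totalled between 20089631 and 20332148 at P21, and between 17662335 and 19760764 at E16.5. Xist and Y-linked counts put a male (replicate 1) and a female (replicate 2) in each P21 genotype, and 2 females (replicates 1 and 2) with 1 male (replicate 3) in each E16.5 genotype. Defining neuronal genes summed to 6604 and 7249 CPM in P21 cKO and to 6850 and 6961 CPM in WT. Slc17a7, Snap25 and Syt1 made up most of these sums. Of the 8 neuronal genes edgeR called 0 and DESeq2 called 2 lower. Tubb3 (log2 change -0.65, edgeR adjusted p 0.0509) and Map2 (-0.44, edgeR adjusted p 0.0662) had an unadjusted edgeR p under 0.05. Of 6 hippocampal formation genes, Prox1 (log2 change -1.86, edgeR adjusted p 0.0315) and Bcl11b (log2 change -0.76, edgeR adjusted p 0.0162) were called lower in cKO and Wfs1 higher (log2 change 1.12, edgeR adjusted p 0.0108).

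The 9 genes lie on 8 chromosomes (GRCm38, gene spans from RefSeq), since Cldn11 and Ugt8a share chromosome 3. Mog spans chr17:37010740-37023398 on the minus strand, Mag chr7:30899175-30914922 on the minus strand, and Cnp chr11:100574909-100591875 on the plus strand. Opalin spans chr19:41061959-41077113 on the minus strand, and Mobp chr9:120149742-120181488 on the plus strand. Cldn11 spans chr3:31149920-31164326 on the plus strand, Ugt8a chr3:125865272-125938682 on the minus strand, and Gjb1 chrX:101376376-101385629 on the plus strand. Mbp is described below without a start site, since the promoter table used here gave none. Cnp shares 9058 bases with Dnajc7, and no source used here says whether counting was by strand, so reads of the pair may not be separable. Dnajc7 changed by 0.18 on the log2 scale (SE 0.098), with an edgeR adjusted p of 0.303. Smaller annotated genes lie inside Mbp (Rpl21-ps8 and Gm52337) and Ugt8a (Gm40145). The Mbp row sums all transcripts of the locus, which include the golli forms known from neurons and immune cells.

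The promoters of the 9 genes differ in base composition, and the sequences shown here are those that the peak data below refer to. Promoters were taken from RefSeq (GRCm38.p6) as the 250 bases before a start site, 5′ to 3′ on the gene's strand. They were found for 8 of the 9 genes, with 3 starts for Mag and 4 for Gjb1. Capitals mark each CG dinucleotide. The first 3, on chr3:125938653-125938902 (minus strand), chr3:31149670-31149919 (plus) and chr11:100574689-100574938 (plus), hold 32, 19 and 13 CG dinucleotides, and each start site carries an H3K4me3 peak in both genotypes.
Ugt8a: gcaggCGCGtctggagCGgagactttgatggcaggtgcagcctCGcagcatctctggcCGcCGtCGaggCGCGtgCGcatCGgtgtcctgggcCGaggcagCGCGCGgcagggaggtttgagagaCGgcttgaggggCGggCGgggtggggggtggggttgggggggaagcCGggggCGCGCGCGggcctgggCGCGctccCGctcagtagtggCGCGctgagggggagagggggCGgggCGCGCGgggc
Cldn11: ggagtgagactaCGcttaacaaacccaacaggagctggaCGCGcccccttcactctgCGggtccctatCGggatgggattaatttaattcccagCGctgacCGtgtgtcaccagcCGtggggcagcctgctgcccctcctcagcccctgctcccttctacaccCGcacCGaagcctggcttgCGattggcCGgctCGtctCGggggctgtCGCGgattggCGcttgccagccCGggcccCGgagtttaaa
Cnp: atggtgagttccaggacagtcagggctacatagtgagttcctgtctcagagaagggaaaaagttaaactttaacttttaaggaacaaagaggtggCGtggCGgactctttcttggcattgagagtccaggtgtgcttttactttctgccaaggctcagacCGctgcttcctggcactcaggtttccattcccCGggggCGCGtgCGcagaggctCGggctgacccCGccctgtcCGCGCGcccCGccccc
The next 3 have no H3K4me3 peak at the start. They are the last of the Gjb1 starts, chrX:101383482-101383731 (plus strand), with 10 CG dinucleotides, and the Opalin and Mog promoters, chr19:41077114-41077363 and chr17:37023399-37023648 (both minus), with 4 and 2.
Gjb1: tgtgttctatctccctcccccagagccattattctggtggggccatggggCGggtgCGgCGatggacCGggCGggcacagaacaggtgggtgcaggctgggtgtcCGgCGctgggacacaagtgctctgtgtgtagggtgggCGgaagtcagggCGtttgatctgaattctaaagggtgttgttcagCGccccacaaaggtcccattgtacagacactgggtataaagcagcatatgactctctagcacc
Opalin: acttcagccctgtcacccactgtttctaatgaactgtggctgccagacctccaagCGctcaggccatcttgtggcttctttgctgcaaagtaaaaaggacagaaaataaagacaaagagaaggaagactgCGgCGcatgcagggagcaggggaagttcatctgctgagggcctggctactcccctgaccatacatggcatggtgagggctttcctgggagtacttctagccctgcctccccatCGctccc
Mog: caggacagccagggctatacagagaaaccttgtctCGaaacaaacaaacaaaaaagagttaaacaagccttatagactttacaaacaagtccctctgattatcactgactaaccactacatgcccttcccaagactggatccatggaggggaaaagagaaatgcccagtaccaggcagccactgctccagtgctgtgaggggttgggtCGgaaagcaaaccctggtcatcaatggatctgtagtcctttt
The median number of CG dinucleotides was 17 in the 12682 promoters with a WT H3K4me3 peak within 1 kb of the start and 3 in the 2945 promoters without one.

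Motifs known for the 2 transcription factors of myelination, and an E-box, were looked for in the same windows on both strands. They were ACAAAG and ACAATG, core letters of SOX sites, CTGGCAC, core letters of a MYRF site, and CAGCTG, an E-box. ACAAAG was found in at least 1 start window of Mag, Cnp, Opalin, Mobp and Gjb1, and in 12.3% of the 15627 promoters searched. The shares given here are per single promoter window. Mag and Gjb1 have several windows each, and overlapping Mag windows share a match, so the genes named and these shares are not like measures. Mobp held 6 matches, at 243, 231, 221, 198, 132 and 120 bases before the start, and its window held no match to the other motifs. Its promoter, chr9:120149492-120149741 (plus strand), is shown with these matches in capitals, all of which read as the reverse complement.
Mobp: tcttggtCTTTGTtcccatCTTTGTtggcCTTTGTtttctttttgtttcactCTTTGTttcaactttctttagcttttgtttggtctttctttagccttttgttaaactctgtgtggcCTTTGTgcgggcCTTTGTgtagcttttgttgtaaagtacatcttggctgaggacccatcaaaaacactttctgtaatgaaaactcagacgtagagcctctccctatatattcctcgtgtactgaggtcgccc
CTGGCAC was found in Mag and Cnp and in 4.32% of all promoters. ACAATG was found in 1 Gjb1 window and in 6.52% of all promoters. CAGCTG was found in none of the windows and in 12.5% of all promoters. These matches describe the letters only.

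Among the surface and adhesion proteins, Mog and Mag are immunoglobulin-like membrane proteins, the one of the outermost myelin layer and the other of the membrane that faces the axon. Mog had 601 and 621 estimated counts in cKO hippocampi at P21, against 2040 and 2249 in WT, which is 29.0 and 31.1 CPM against 102 and 113 CPM. The cKO libraries lay close together and far below both WT libraries. The log2 change was -1.84 (SE 0.11, edgeR adjusted p 0.00049). An interval of 2 SE either side, narrower than a 95% interval with so few libraries, ran from 24.0% to 32.6% of WT. Mag stood at 85.8 and 93.6 CPM in cKO and at 191 and 197 CPM in WT. Its log2 change was -1.11 (SE 0.10, edgeR adjusted p 0.0025), so that both are called lower but Mag by a smaller factor. Opalin, a sialylated transmembrane protein made by oligodendrocytes, was read at 7.52 and 6.42 CPM in cKO, from 156 and 128 counts, against 22.1 and 22.8 CPM in WT, from 442 and 454 counts. Its log2 change was -1.69 (SE 0.15, edgeR adjusted p 0.00231).

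Mbp and Mobp encode the basic proteins that hold the cytoplasmic faces of compact myelin together. The Mbp gene spans chr18:82475091-82585637. It stood at 2445 and 2417 CPM in cKO hippocampi and at 3579 and 3603 CPM in WT. The replicates differed little, and the groups did not overlap. The log2 change was -0.56 (SE 0.10, edgeR adjusted p 0.0228), and its adjusted p was 0.151 without WT replicate 1 and 0.225 without WT replicate 2. Mobp was read at 764 and 639 CPM in cKO, against 1175 and 1386 CPM in WT. Here replicates of each genotype differed more than for Mbp, in opposite directions. The log2 change was -0.87 (SE 0.14, edgeR adjusted p 0.0129), with an adjusted p of 0.0853 without WT replicate 2. The male pair differed by -0.62 and the female pair by -1.12 on the log2 scale.

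Cnp encodes the cyclic nucleotide phosphodiesterase of noncompact myelin, and Cldn11 the claudin of its tight junctions. Cnp stood at 185 and 186 CPM in cKO hippocampi at P21, against 417 and 403 CPM in WT, with no overlap (log2 change -1.14, SE 0.10, edgeR adjusted p 0.00215). Cldn11 was read at 138 and 123 CPM in cKO and at 267 and 297 CPM in WT. Its log2 change was -1.11 (SE 0.12, edgeR adjusted p 0.00342). Cldn11 is also known from the barrier cells of the meninges. The summed CPM of 10 meningeal fibroblast genes, a list added after the data were seen, were 262 and 242 in cKO and 230 and 221 in WT at P21. Igf2 made up most of that sum (148 CPM on average in cKO and 134 CPM in WT), and of the 10 genes Col3a1 was called lower in cKO (log2 change -0.89, edgeR adjusted p 0.0454) and 0 higher. Their part in the Cldn11 difference was not tested.

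Ugt8a encodes the ceramide galactosyltransferase that makes galactosylceramide, the main glycolipid of myelin. It stood at 18.4 and 17.1 CPM in cKO, from 382 and 340 counts, against 68.6 and 74.5 CPM in WT, from 1369 and 1485 counts. The groups were far apart relative to their spread, differing by -2.01 on the log2 scale (SE 0.11, edgeR adjusted p 0.00049). The interval of 2 SE either side ran from 21.2% to 29.1% of WT. Gjb1 encodes a connexin of oligodendrocyte gap junctions. Its counts were the lowest of the 9 at 41 and 26 in cKO, or 1.98 and 1.30 CPM, against 171 and 196 in WT, or 8.56 and 9.83 CPM. The log2 change was -2.48 (SE 0.27, edgeR adjusted p 0.00377). Its interval of 2 SE either side, 12.4% to 25.9% of WT, is the widest of the 9 in relative terms, from the lowest counts.

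**Figure D1:**
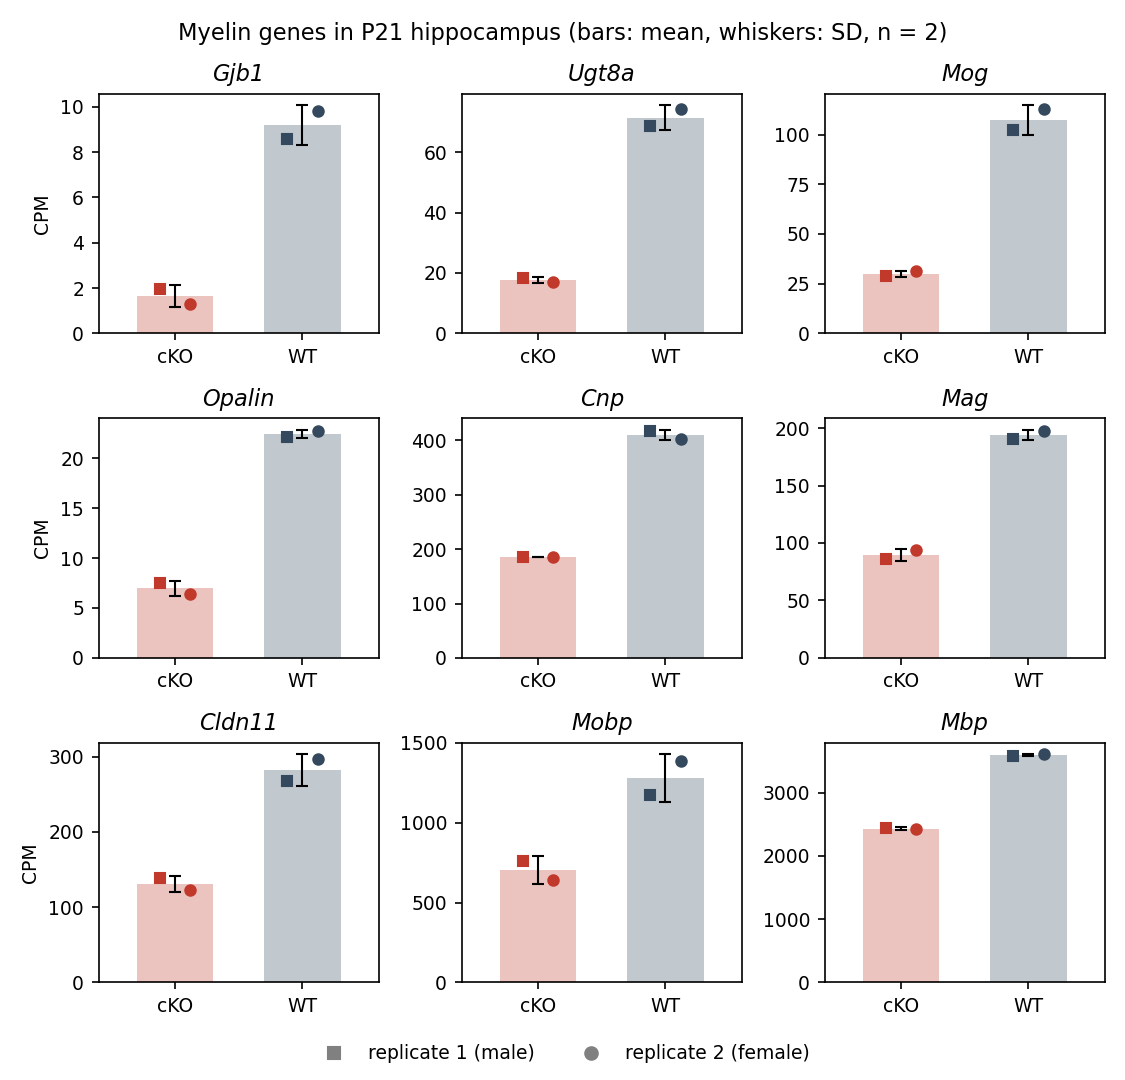
CPM (y axes) of the 9 myelin genes in P21 cKO (left) and WT (right) hippocampi, with bars for the mean, whiskers for the SD (n = 2) and a point per library. In every panel both cKO points lie below both WT points, from Gjb1 (1.98 and 1.30 CPM in cKO, 8.56 and 9.83 CPM in WT) to Mbp (2445 and 2417 CPM in cKO, 3579 and 3603 CPM in WT).

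In all 9 genes every cKO library lay below every WT library, a pattern found in 27.9% of all genes tested. The 9 changes were negative within the male pair, from -2.12 for Gjb1 to -0.55 for Mbp, and within the female pair, from -2.91 for Gjb1 to -0.58 for Mbp. The largest gap between the pairs was that of Gjb1, 0.80 on the log2 scale, and the next that of Mobp, 0.49. For 7 of the 9 genes the fall was at least 2-fold, which together with the test held for 1.59% of all genes. Mobp and Mbp were the exceptions. The authors' deposited table gives log2 fold changes for the same libraries from -2.49 for Gjb1 to -0.57 for Mbp, all with an adjusted p of 1.61e-07 or lower.

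**Figure D2:**
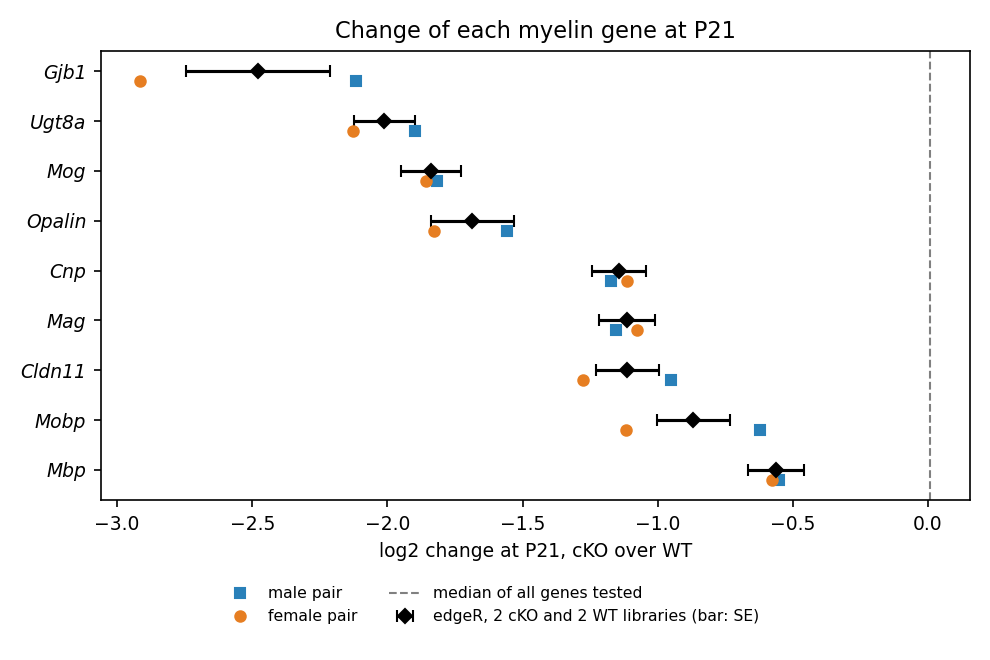
Log2 change of each myelin gene at P21, cKO over WT (x axis): diamonds are the edgeR estimate with its SE over 2 cKO and 2 WT libraries, squares the male pair and circles the female pair. All points lie left of the median of all genes tested (dashed line, 0.01), and the order runs from -2.48 for Gjb1 to -0.56 for Mbp.

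The genes thus did not fall in proportion, which can be read within each library as counts per 1000 Mbp counts. Such a ratio shows unequal change and not which gene changed. Mog stood at 11.8 and 12.9 per 1000 Mbp counts in cKO, against 28.5 and 31.3 in WT. For Ugt8a the ratios were 7.53 and 7.05 in cKO and 19.2 and 20.7 in WT. Gjb1 had 0.81 and 0.54 in cKO, against 2.39 and 2.73 in WT. Opalin, Cnp, Mag and Cldn11 had lower ratios in both cKO libraries as well, such as 75.7 and 77.0 for Cnp in cKO against 117 and 112 in WT. Mobp kept closest to Mbp, with 312 and 264 in cKO and 328 and 385 in WT, again without overlap. Summed over the 9 genes, the libraries held 3515 to 3675 CPM in cKO and 5831 to 6107 CPM in WT. In such bulk tissue, fewer oligodendrocytes and less myelin RNA per oligodendrocyte cannot be told apart.

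Some of these calls differed between fits. In 1 fit of all 10 libraries, which shares the spread with the embryonic samples, 4 of the 9 were called (Gjb1, Opalin, Mog and Ugt8a). The adjusted p was then 0.0538 for Cnp, 0.0761 for Mag, 0.112 for Mobp, 0.158 for Mbp and 0.673 for Cldn11, with log2 changes between -1.16 and -0.58.

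Other genes of the myelin sheath, the paranode and glial gap junctions were lower as well. Of 24 tested, 16 were called lower and 0 higher (median log2 change -0.82). Tmem88b, a transmembrane protein gene, was at 19.8 to 26.3 CPM in cKO and 70.0 to 77.8 CPM in WT (log2 change -1.68, edgeR adjusted p 0.00229). Cmtm5, a MARVEL-domain protein gene, changed by -1.18 and Cntn2, a contactin of the juxtaparanode, by -1.01. Sept4, a septin, was at 45.3 to 45.4 CPM in cKO and 89.2 to 92.6 CPM in WT. The point farthest left in the plot of gene lists is Ninj2, named after its values were seen. It passed the count filter only through the WT libraries, with a mean of 0.0984 CPM in cKO and 1.23 CPM in WT, and the size of its fold is not read. The 8 genes of this list not called were Gpm6b (-0.09), Omg (-0.09), Sirt2 (-0.21), Hapln2 (-0.32), Jam3 (-0.38), Cd9 (-0.50), Cd82 (-0.79) and Anln (0.18). Neurons also express Gpm6b and Omg, and the part of this in their values was not tested. The same limit holds for genes called lower. Cntn2 and Nfasc, set side by side after their values were seen, had high levels in the embryo already. At E16.5 Cntn2 stood at a mean of 787 CPM in cKO and 765 CPM in WT, and Nfasc at 252 and 235 CPM. The part of cells other than oligodendrocytes in their P21 fall was not tested.

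Of 12 genes of myelin lipid metabolism tested, 3 were called lower and 0 higher, and the median log2 change was -0.51. Of the 12, 11 had a negative change, and 8 an unadjusted p under 0.05. Fa2h, the fatty acid hydroxylase that acts before Ugt8a in making hydroxylated galactosylceramide, was at 30.9 to 33.8 CPM in cKO and 69.6 to 74.1 CPM in WT (log2 change -1.15, edgeR adjusted p 0.0025). Aspa, the aspartoacylase that releases acetate in oligodendrocytes, fell by 1.62 on the log2 scale (edgeR adjusted p 0.012). Gltp, a glycolipid transfer protein, fell by 0.49 (edgeR adjusted p 0.0435).

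Of 13 other mature oligodendrocyte genes tested, out of 14 listed, 7 were called lower and 1 higher (median log2 change -1.01). Trf, the iron carrier transferrin, was at 46.2 to 47.5 CPM in cKO and 137 to 143 CPM in WT (log2 change -1.58, edgeR adjusted p 0.000555). Gamt, an enzyme of creatine synthesis, changed by -1.87 and Gpr37, a receptor of myelinating oligodendrocytes, by -1.02. Apod, the lipid carrier apolipoprotein D, was the one called higher, at 187 to 210 CPM in cKO and 84.3 to 89.1 CPM in WT (log2 change 1.19, edgeR adjusted p 0.00231). Apod is also made by cells other than oligodendrocytes.

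Among 11 oligodendrocyte transcription factors, 2 were called lower and 0 higher, with a median log2 change of -0.42. Myrf, the activator of myelin genes, stood at 58.5 to 63.9 CPM in cKO and at 97.8 to 98.8 CPM in WT (log2 change -0.68, edgeR adjusted p 0.012). Olig1 fell by 0.66 on the log2 scale (edgeR adjusted p 0.0125). Sox10, whose protein is named above with MYRF, was not called (log2 change -0.35, edgeR adjusted p 0.116). Of the 11 factors, 8 had a negative change and 8 an unadjusted edgeR p under 0.05, and DESeq2 called 3 lower. Zfp24, named after its values were seen, had such a p with a positive change (0.47, edgeR adjusted p 0.0585). Of 11 oligodendrocyte progenitor genes edgeR called 0 in either direction (3 at an unadjusted p under 0.05), DESeq2 called 2 lower, and their median was 0.03, near that of all genes. The closest was Gpr17, a receptor of committed progenitors, with a log2 change of -0.49 (edgeR adjusted p 0.0586). The axonal partners of the node and paranode gave 1 call of 9, Cntnap2, which was higher in cKO (log2 change 0.50, edgeR adjusted p 0.028). Of these 9, 7 had a negative change and 4 an unadjusted edgeR p under 0.05, and the median was -0.28. DESeq2 called 1 higher and 1 lower. These lists were set beside the 9 genes by their counts and medians only.

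**Figure D3:**
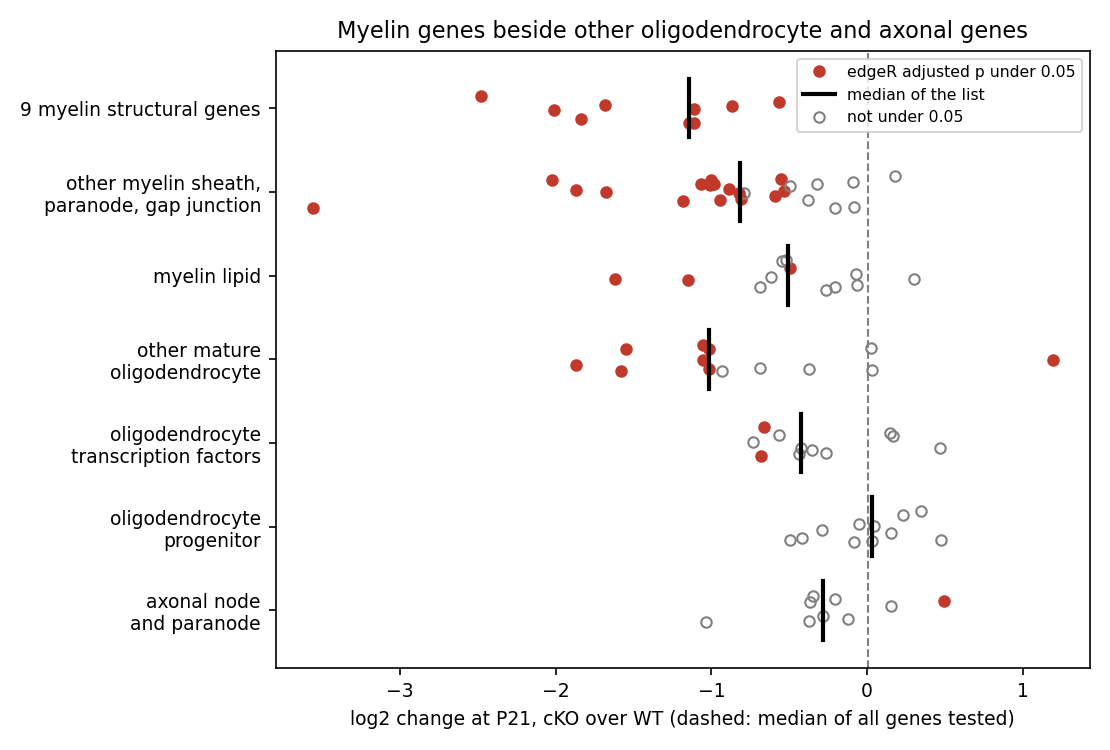
Log2 change at P21, cKO over WT (x axis), of the 9 myelin genes and of 6 further gene lists (rows). Filled points have an edgeR adjusted p under 0.05, open points do not, and bars mark list medians, which run from -1.14 for the 9 myelin genes to 0.03 for the progenitor genes.

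Markers of other cells moved with genotype at P21, and their part in the myelin differences was not tested. Microglial genes summed to 152 and 155 CPM in cKO and 272 and 247 CPM in WT, with 5 of 7 called lower. Of 8 astrocyte genes 2 were called lower and 1 higher, with sums of 3383 and 3240 CPM in cKO and 3797 and 3794 CPM in WT. Striatal genes summed to 171 and 267 CPM in cKO and 95.3 and 104 CPM in WT, with Drd1 and Ppp1r1b called higher out of 8. Endothelial genes summed to 308 and 316 CPM in cKO and 225 and 201 CPM in WT, with 3 of 6 called higher and 1 lower. Ependymal genes summed to 25.02 and 21.3 CPM in cKO and 11.2 and 8.82 CPM in WT, with 2 of 3 called higher. Choroid plexus genes summed to 3602 and 1028 CPM in cKO and 1412 and 1180 CPM in WT, and thalamic genes to 198 and 126 CPM in cKO and 132 and 129 CPM in WT, with 0 called of 6 in each list by edgeR or DESeq2 (0 at an unadjusted p under 0.05). Of 5 Schwann cell genes, which would mark peripheral myelin, Foxd3 was at 0 in every P21 library and Pmp2 was at 0.0501 CPM or below, and the list summed to 1.49 and 1.91 CPM in cKO and 3.36 and 2.81 CPM in WT. Most of that sum was Prx, a periaxin gene, at a mean of 1.03 CPM in cKO and 2.83 CPM in WT, which was called lower (log2 change -1.45, edgeR adjusted p 0.0424).

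At E16.5 the same genes were read at low levels, and none was called. Of the 9, 6 passed the count filter, and Gjb1, Opalin and Mobp did not. edgeR called 0 lower and 0 higher (1 at an unadjusted p under 0.05), and DESeq2 also called 0, against a background of 0.112% called lower and 0.0118% called higher among 16958 genes tested. The 2 tables of counts were deposited separately by age, so levels at the 2 ages are set side by side without a test.

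Mog had 39, 47 and 42 counts in E16.5 cKO hippocampi and 36, 37 and 40 in WT, or 2.19, 2.66 and 2.10 CPM in cKO and 1.89, 1.90 and 2.05 CPM in WT. It was the only one of the 9 with every cKO library above every WT library, which held for 14.0% of all genes. Its log2 change was 0.25 (SE 0.22, edgeR adjusted p 0.536). Mbp stood at 17.9, 15.3 and 21.5 CPM in cKO and at 18.6, 29.5 and 25.8 CPM in WT, where the groups overlapped (log2 change -0.43, SE 0.20, edgeR adjusted p 0.282). Cnp stood at 9.65, 13.2 and 18.7 CPM in cKO and at 19.0, 21.9 and 15.0 CPM in WT, also with overlap (log2 change -0.43, SE 0.27, edgeR adjusted p 0.392). Mag had 4, 9 and 27 counts in cKO, against 21, 20 and 19 in WT (log2 change -0.56, SE 0.60, edgeR adjusted p 0.611). Ugt8a had 14, 12 and 30 counts in cKO, against 23, 30 and 17 in WT (log2 change -0.28, SE 0.41, edgeR adjusted p 0.709). For both the groups overlapped, and a 2-fold lower level in cKO lay within 2 SE of the estimate. Gjb1 had 8, 5 and 8 counts in cKO and 6, 4 and 6 in WT, and Mobp had 7, 1 and 3 counts in cKO and 2, 5 and 0 in WT. Opalin had 0 counts in every cKO library and 1, 0 and 0 in WT.

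Cldn11 behaved unlike the other 8 in the embryo. It had 1, 6 and 50 counts in cKO, against 1317, 72 and 88 in WT, or 0.0561, 0.339 and 2.50 CPM in cKO and 69.3, 3.70 and 4.51 CPM in WT. Every cKO library lay below every WT library, as in 15.3% of all genes, and WT replicate 1 stood far above the rest. The log2 change was -4.69 (SE 1.64, unadjusted edgeR p 0.0286, adjusted p 0.204). Without WT replicate 1 it was -2.05 (adjusted p 0.492), and without any 1 of the 6 libraries it ranged from -6.98 to -2.05, never past the threshold; DESeq2 gave no p-value for it. The 10 meningeal fibroblast genes summed to 66.6, 87.9 and 232 CPM in cKO and to 2532, 376 and 446 CPM in WT, the same order of libraries within each genotype. All 10 had a negative change with an unadjusted p under 0.05, edgeR called 0 and DESeq2 called 8 lower. Slc6a13, for example, stood at 0.0561, 0.0565 and 1.35 CPM in cKO and at 63.9, 3.24 and 9.38 CPM in WT. Choroid plexus genes also differed widely between libraries, summing to 1.46, 38.3 and 2469 CPM in cKO and 4773, 3209 and 25.2 CPM in WT. Microglial genes summed to 37.5 to 57.2 CPM in cKO and 78.4 to 134 CPM in WT, and astrocyte genes to 214 to 411 CPM in cKO and 549 to 793 CPM in WT. The part of these cell types in the embryonic values was not tested.

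**Figure D4:**
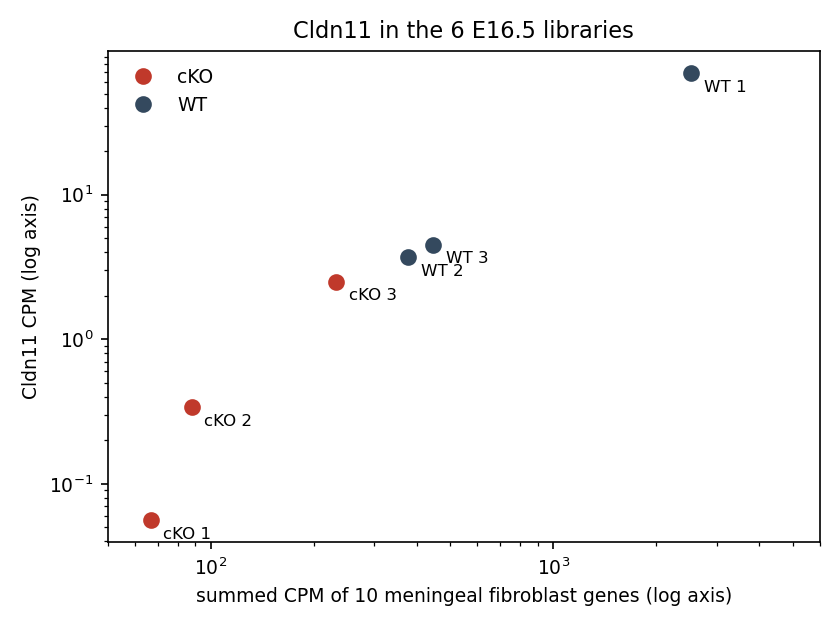
Cldn11 (y axis, CPM, log scale) against the summed CPM of 10 meningeal fibroblast genes (x axis, log scale) in the 3 cKO and 3 WT libraries at E16.5. WT replicate 1 lies at the upper right (69.3 CPM of Cldn11, 2532 CPM of the meningeal genes), and cKO replicate 1 at the lower left (0.0561 and 66.6 CPM).

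The difference between the P21 and the E16.5 effect was itself tested in 1 fit of the 10 libraries. It was called for 2 of the 9 genes, both below 0, against 0.738% of 18979 genes called below 0 and 0.427% above 0 (97 below and 97 above 0 with upper-quartile scaling, in place of 140 and 81). With the replicate number as a block it was called for 0 of the 9 (adjusted p 0.0973 for Mog and 0.228 for Gjb1), and same-numbered libraries of an age have the same sex. For Mog it was -2.12 on the log2 scale (SE 0.16, edgeR adjusted p 0.00449), and leaving out any 1 library kept the adjusted p between 0.00398 and 0.0274. For Gjb1 it was -2.96 (SE 0.46, edgeR adjusted p 0.0301), but Gjb1 did not pass the count filter at E16.5 and entered this fit only through the P21 libraries, so its embryonic side rests on 4 to 8 counts. This call was lost, with adjusted p between 0.057 and 0.113, when P21 cKO replicate 2, either P21 WT replicate, E16.5 cKO replicate 2 or any E16.5 WT replicate was left out. Ugt8a came next at -1.78 (SE 0.40, edgeR adjusted p 0.071) and passed with DESeq2 (adjusted p 0.000229). The difference was -0.76 for Cnp (SE 0.34, adjusted p 0.252), -0.62 for Mag (SE 0.54, adjusted p 0.559) and -0.17 for Mbp (SE 0.27, adjusted p 0.768) by the same edgeR test. For Cldn11 it was 3.51 (SE 1.88, edgeR adjusted p 0.335), which rests on the embryonic values above. For Mobp it was -1.59 (SE 0.92, edgeR adjusted p 0.367) and for Opalin 0.12 (SE 0.11, edgeR adjusted p 0.717). Like Gjb1, both failed the count filter at E16.5, so the embryonic side of these values rests on counts near 0. Age cannot be told apart from the table and any batch it was made in.

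In the 3-week ChIP-seq data, the WT peak lists held few marks at these genes. H3K4me3, which marks active promoters, had a peak within 1 kb of 5 of the 9 genes in cKO (Mag, Mbp, Cnp, Cldn11 and Ugt8a) and of 4 in WT (Mbp, Cnp, Cldn11 and Ugt8a). Among the 15816 genes tested at P21 that have coordinates, 88.2% had such a peak in cKO and 86.5% in WT, and 2.10% had one in cKO and none in WT, as Mag did. The H3K4me3 peak that both lists hold at Mbp lay at the lower end of its span, chr18:82474777-82476389 in cKO and chr18:82474968-82476817 in WT. No start site was at hand for Mbp, so whether that peak marks a start of the golli or of the myelin forms cannot be told. H3K27ac, found at active promoters and enhancers, had peaks at Mbp and Cnp in cKO and at Mbp in WT. This was the case for 72.0% of genes in cKO and 51.0% in WT, and 22.0% had a peak in cKO and none in WT, as Cnp did. H3K27me3, the Polycomb mark, had peaks at 6 of the 9 in cKO (Mag, Mbp, Mobp, Cldn11, Ugt8a and Gjb1) and at 0 in WT. Over all genes 18.1% had an H3K27me3 peak in cKO and 3.72% in WT, and 14.4% had one in cKO and none in WT. With 1 library per genotype there is no test of these counts. The authors' H3K27me3 list held 15659 peaks covering 13.04 Mb in cKO and 4124 peaks covering 2.86 Mb in WT, so that a peak in cKO alone was common genome-wide.

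The H3K27me3 peaks of the cKO library lay at different places in the 6 genes. At Ugt8a the peak, chr3:125937342-125938742, ran 1401 bases across the start site, and its authors' fold enrichment over input was 8.12. At Cldn11 the peak, chr3:31149666-31150469, also covered the start (fold enrichment 6.61). The Cldn11 peak covers the whole promoter printed above. The Ugt8a peak runs from -90 to 1310 bases relative to the start, so that most of it lies after the printed promoter. Both overlap an H3K4me3 peak of the cKO list, by 1060 bases at Ugt8a and 706 bases at Cldn11. At Gjb1 the peaks chrX:101384204-101384680 and chrX:101384823-101385670 began 472 and 1091 bases after the last of the 4 starts, the one whose promoter is printed, with no H3K4me3 peak in either list. At Mag the peak chr7:30908295-30909152 lay 5169 bases or more inside the gene from the most downstream start and covered all 201 bases of the H3K4me3 peak that the cKO list has there. At Mobp the peak chr9:120168065-120168734 lay 18323 bases or more after the start, inside the gene. At Mbp a peak of 378 bases lay close to the upper end of the span. Counted within 1 kb of a start site, 3 of 8 genes (Cldn11, Ugt8a and Gjb1) had H3K27me3 in cKO and none in WT, against 11.1% of 12219 genes.

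At Cnp the H3K4me3 peak covered the start in both lists, chr11:100574720-100575769 in cKO and chr11:100574772-100575623 in WT, and the cKO list added an H3K27ac peak, chr11:100574958-100575505. Mbp, the gene with the smallest fall, had H3K27ac peaks in both lists, 5 in cKO and 3 in WT, at the lower end of its span and far inside it. Whether any of them lies at a start of its myelin forms was not tested. Opalin had no peak of any of the 3 marks within 10 kb in either genotype. Mog had none within 1 kb, and its nearest, H3K27ac and H3K4me3 peaks of both genotypes, began 4975 bases or more before its start. Fold enrichments come from lists of single libraries with different input scaling and were not compared between genotypes.

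**Figure D5:**
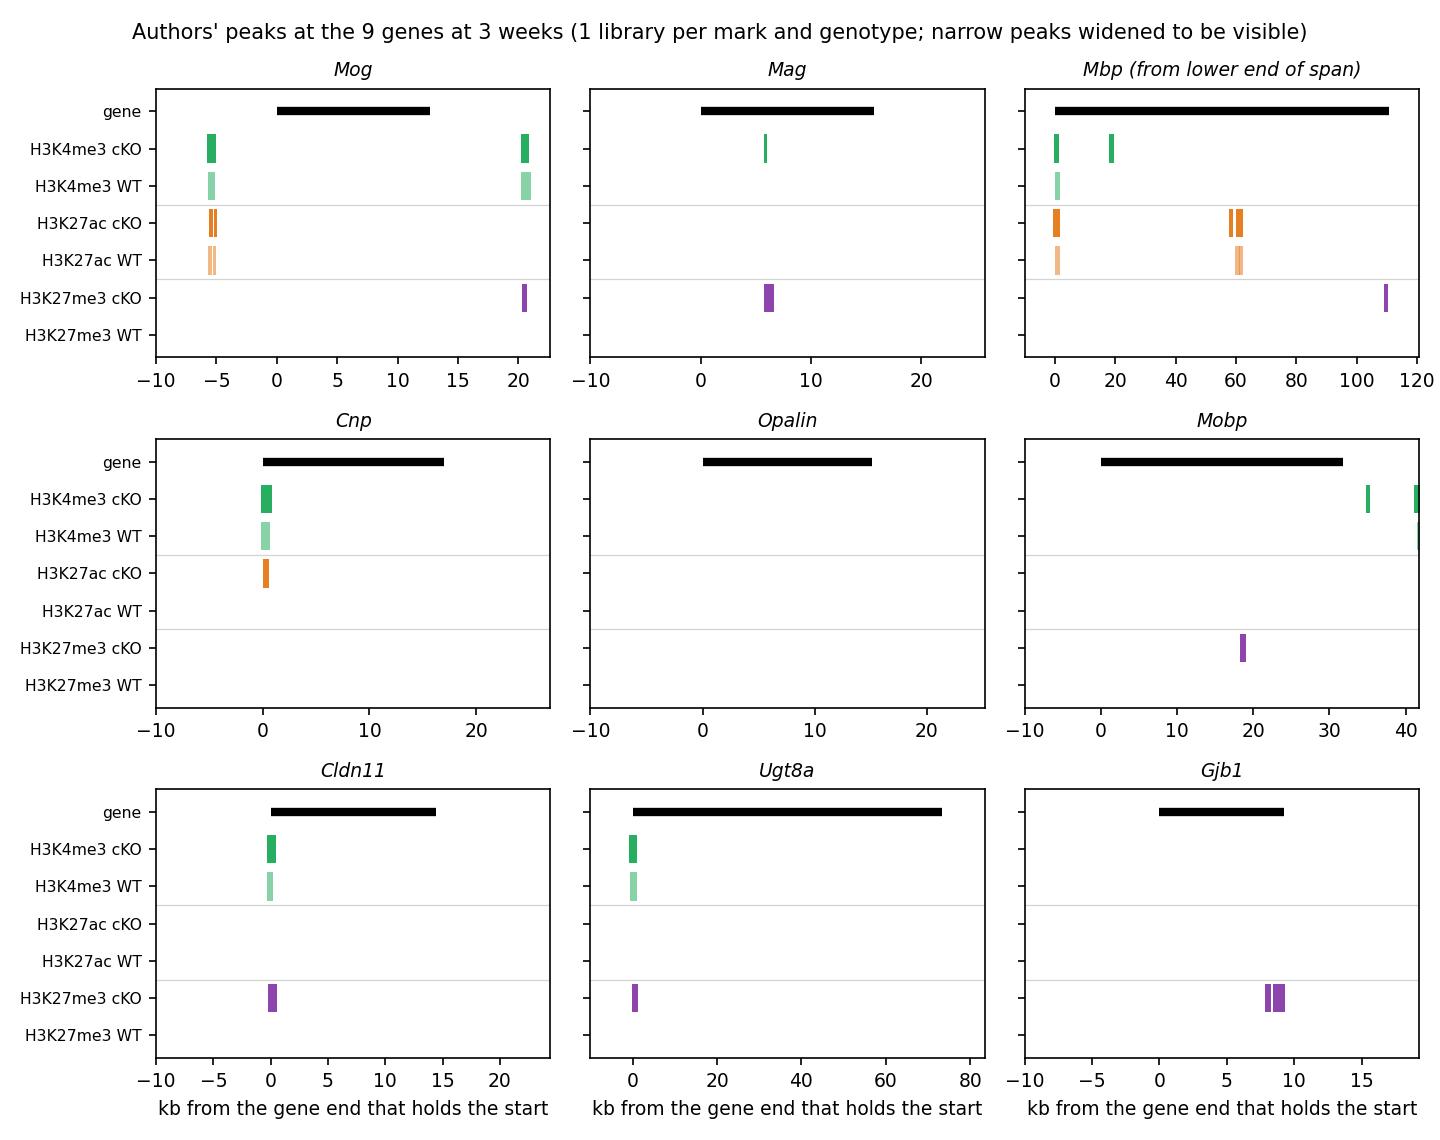
Authors' peaks of H3K4me3 (green), H3K27ac (orange) and H3K27me3 (purple) at the 9 genes at 3 weeks, cKO above WT for each mark, with the gene as a black bar and distance from its start end in kb on the x axis (for Mbp from the lower end of its span). H3K27me3 peaks appear in the cKO rows at Mog, Mag, Mbp, Mobp, Cldn11, Ugt8a and Gjb1, the one at Mog lying beyond the far end of the gene, and in no WT row.

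Likeness to the 9 genes was measured for the other genes as the Pearson correlation of log2 CPM with the mean centred profile of the 9 over the 10 libraries, whose main contrast is age. The 8 most like were Slc2a13 (r 0.999), Srr (0.997), Lin7b (0.997), Lyst (0.997), Sec14l5 (0.997), Mal (0.997), Rilpl1 (0.996) and Cpox (0.996). Of these, Mal (log2 change at P21 -1.07), Lin7b (-0.58), Slc2a13 (-0.53) and Sec14l5 (edgeR adjusted p 0.0232) were called lower in cKO at P21. Lyst (-0.40), Cpox (-0.37), Rilpl1 (-0.27) and Srr (-0.16) were not called. Over all genes tested 3.91% were called lower. The 8 were picked on libraries that include those of P21, so these calls are not independent of the choice. Among the 9 themselves r ran from 0.88 for Cldn11 to 0.997 for Cnp.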

How the data were processed

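Hippocampal RNA was sequenced in 10 libraries and ChIP-seq was done in 8. The deposited RNA tables hold estimated counts per gene; the submitters' processing notes name Salmon 1.0.0 and GRCm38. No source used here gives the summing of transcripts per gene or the use of strand. The authors also deposited, per age, log2 fold changes with p-values and a mean-level score from DESeq2 1.26.0, per the same notes. Peaks are the authors' narrow peaks, called on single libraries against the input of the same genotype at a q-value limit of 0.01 with MACS 2.2.7.1, per the file headers (the notes name MACS2 2.2.5 and Bowtie2 2.3.5.1). The deposited lists give a pileup signal, a fold enrichment ratio and, as −log10, a p-value and a q-value.

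Estimated counts were rounded to whole numbers; 20.8% to 22.5% of values per library were not whole. Each age was tested alone with edgeR 4.0.16 (R 4.3.3): filterByExpr, TMM scaling, robust quasi-likelihood F test and Benjamini-Hochberg adjustment over all genes tested, threshold 0.05. SEs are approximate, from the F statistic. Ages were compared by a contrast in 1 fit of the 10 libraries. The fits were tested on simulated counts. Alternatives were DESeq2 1.42.0, RLE and upper-quartile scaling, no count filter, a fit of the 10 libraries together, the replicate number as a block, a fit that is not robust, sex as a covariate (E16.5), and leaving out each library. Peaks were assigned to genes within 1 kb of the RefSeq span (GRCm38.p6). The alternatives there were the span alone, 5 kb, a −log10 q of at least 5, and an overlap of 50% in place of 1 base.

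The 9 genes and all lists were chosen with earlier results of these data known, and the meningeal list was added after the data were seen. Named genes are the 9, Arid1a, up to 4 per list with the lowest p among those called (or the closest 1), and the 8 most like the 9. Marker genes of other cells, and others said to be so, were chosen after their values were seen. p-values set each difference against the spread between the samples of each group, which edgeR estimates with information shared across genes.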

Additional observations from a re-analysis of the deposited data

Results flagged for a closer look

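The cKO effect differed between the ages for 2 of the 9 genes by a test of the difference itself, but for 0 with the replicate number as a block (adjusted p 0.0973 for Mog and 0.228 for Gjb1). For Mog the P21 effect minus the E16.5 effect was -2.12 on the log2 scale (SE 0.16, edgeR adjusted p 0.00449): the log2 change was -1.84 at P21 and 0.25 at E16.5. For Gjb1 it was -2.96 (SE 0.46, edgeR adjusted p 0.0301), with 41 and 26 counts in cKO against 171 and 196 in WT at P21, and 4 to 8 counts in every E16.5 library, where Gjb1 did not pass the count filter. Leaving out any 1 of 7 of the 10 libraries ended the Gjb1 call (adjusted p 0.057 to 0.113), so its difference is given as a value only. The part of any batch in either difference was not tested, since each age comes from 1 table.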

How the results depend on the processing

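At P21 all 9 genes were also called lower with DESeq2, RLE or upper-quartile scaling, no count filter, or a fit that is not robust, 8 with the replicate number as a block (Mbp lost, adjusted p 0.0776) and 4 in the fit of all 10 libraries. Leaving out 1 library gave 7 to 9. No direction of a P21 change reversed, and 0 were called higher under any alternative. At E16.5, 0 were called under every alternative, though DESeq2 called 352 genes higher and 714 lower over all genes, edgeR without a count filter 24 and 105, and the fit of the 10 libraries 32 and 146. With sex as a covariate the E16.5 calls over all genes were 1 higher and 3 lower, and with 1 library left out 0 to 4 higher and 0 to 13 lower. Over all genes at P21 the calls were 921 higher and 1228 lower without a filter, 155 and 350 in the fit of the 10 libraries, 321 and 478 without the robust fit, and from 138 to 1244 higher and 293 to 1627 lower with 1 library left out. The difference between ages was called for 0 of the 9 with the replicate block (Mog adjusted p 0.0973, Gjb1 0.228) and for 1 to 2 with 1 library left out; over all genes it was called for 416 above and 762 below 0 by DESeq2, 123 and 235 without a filter, and 2 to 273 and 3 to 339 with 1 library left out. The labels tie same-numbered libraries by number alone, although same-numbered libraries of an age also have the same sex. Deviations of same-numbered libraries correlated at 0.0198 at P21 and at -0.228, -0.0208 and -0.492 at E16.5, and not every library was closest to its own number. With the block, all-gene calls were 361 higher and 501 lower at P21, 0 and 0 at E16.5, and 0 above and 1 below 0 for the difference. With a 5 kb window, H3K4me3 in cKO alone was found at 2 genes (Mobp added) and H3K27ac at 2 (Mog added, where the WT peak lies just beyond the window); the H3K27me3 counts were 6 in cKO and 0 in WT under each alternative. The cause of these shifts was not tested. With 2 libraries per genotype at P21 and single ChIP libraries, and with 0 to 8 counts for Gjb1, Opalin and Mobp at E16.5, no embryonic difference in these 3 was detectable at this depth.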

Other observations

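Connexin genes of the 2 main glial cell types, set beside each other after their values were seen, did not move together at P21. Gjb1 and Gjc3, known from oligodendrocytes, were both called lower in cKO. Gjc3 stood at 30.9 to 43.9 CPM in cKO and 61.5 to 76.7 CPM in WT (log2 change -0.89, edgeR adjusted p 0.0462). Gjb6, a connexin of astrocytes and their partner in gap junctions with oligodendrocytes, was called higher, at 81.4 to 90.3 CPM in cKO and 46.3 to 57.0 CPM in WT (log2 change 0.73, edgeR adjusted p 0.0199). Gja1, the other astrocyte connexin measured, stood at 188 to 191 CPM in cKO and 211 to 219 CPM in WT (log2 change -0.19, edgeR adjusted p 0.287). S100b, listed as an astrocyte gene and also expressed by oligodendrocytes, stood at 8.19 to 10.5 CPM in cKO and 49.6 to 50.3 CPM in WT (log2 change -2.42, edgeR adjusted p 0.00049).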
